A study of Mus musculus with 11 samples.

Results

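The genes described here are 8 transcription regulators tied to the thermogenic program of brown and beige fat: the coregulators Prdm16, Ppargc1a and Ppargc1b, the early B cell factors Ebf1, Ebf2 and Ebf3, the interferon regulatory factor Irf4 and the forkhead factor Foxc2. They were chosen by symbol out of 29955 gene symbols, and all 8 were found in the files. Their mRNA was measured by RNA-seq in 11 samples of im-scWAT cells, which are immortalized mouse preadipocytes from inguinal subcutaneous white fat and were made with SV40 large T antigen. The time course held a pair of samples at day 0 (D0) and 1 sample each at day 4 and day 8 of differentiation, either with 0.5 μM rosiglitazone (ROS), a PPARγ ligand, or without it (no ROS). The other 5 samples were taken at day 8 of differentiation with ROS. They came from cells given a short hairpin RNA against mouse Jmjd1a (Kdm3a in the files), which encodes an H3K9 demethylase, together with a retrovirus for human JMJD1A driven by the viral LTR. The retrovirus carried WT-hJMJD1A (samples WT A and WT B), S265A, in which alanine replaces a serine that is phosphorylated by protein kinase A, S265D, in which aspartate mimics that phosphate, or S265D-H1120Y, which adds a change at the catalytic site. All differentiated cultures received indomethacin, dexamethasone, 3-isobutyl-1-methylxanthine, insulin and T3, and the labels and the methods differ on whether ROS was withdrawn on the last day. The D0 samples carry the labels ROS plus and ROS minus but were taken before ROS was added, so they are treated as replicates. The mutants and the differentiated conditions of the time course had 1 sample each. Nothing in the labels says that the D0 pair or the WT pair came from separate cultures, so their spread may be technical.

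PRDM16 is a zinc finger coregulator that binds PPARγ and C/EBP factors and is known for fixing brown and beige adipocyte identity. PGC-1α, encoded by Ppargc1a, is the coactivator that cold and cAMP signalling induce in brown fat, and PGC-1β, encoded by Ppargc1b, is its close relative in the control of mitochondrial genes. EBF2 marks brown and beige precursors and acts with PPARγ at brown fat genes, EBF1 promotes adipogenesis, IRF4 is a fasting- and cold-induced factor that works with PGC-1α at Ucp1, and FOXC2 raises the response of adipocytes to cAMP when it is overexpressed.

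All values are FPKM, fragments per kilobase of exon scaled to the mapped total, so levels can be compared between genes. The total of mapped bases per sample ran from 3.10 to 5.29 Gb. General adipocyte markers separated the D0 samples from the others, since 7 of the 8 listed rose in limma and their summed FPKM was 281 and 284 at D0 against 10086 to 36194 in the 9 differentiated samples, most of it Fabp4. The summed FPKM of 8 preadipocyte markers was 1235 and 1314 at D0 and 259 to 992 afterwards. Of these 8, 4 fell in limma, where 17.7% of all genes did, and 4 did not pass. Among those that did not pass, Pdgfra went from 11.8 and 11.9 FPKM at D0 to a median of 27.1 FPKM. Ly6a, at 424 and 484 FPKM at D0, reached 496 FPKM in WT B. Of 6 muscle markers, Myod1, Myf5, Myog and Ckm were listed at 0 in all samples, and so were the myeloid markers Ptprc and Emr1. The muscle marker Des rose from 0.407 and 0.568 FPKM at D0 to 3.60 to 12.2 FPKM (adjusted p = 4.75e-05 in limma). Acta1 did not pass (adjusted p = 0.0991 in limma) but reached 19.3 FPKM in WT B. The muscle markers summed to 0.660 and 0.807 FPKM at D0 and to 4.11 to 31.6 FPKM afterwards. The 4 endothelial markers summed to at most 4.00 FPKM, the 5 myeloid markers to at most 21.7 FPKM, nearly all of it Cd68, and the 4 B cell markers to at most 0.150 FPKM. WT A and WT B differed by at least 2-fold in 27.2% of tested genes, against 4.9% for the D0 pair. Kdm3a itself, the target of the short hairpin RNA, ran from 13.03 FPKM in S265A to 28.5 FPKM in S265D-H1120Y, with 20.4 and 17.9 FPKM in the WT pair and 21.1 FPKM in untransduced D8 ROS cells. It therefore gives no check of the knockdown, and reads from the human cDNA were not separated from it. The transduced samples are called by their labels for that reason.

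RefSeq promoter entries on GRCm38.p6 existed for 5 of the 8 genes (Prdm16, Ppargc1a, Ebf1, Ebf3 and Irf4). The 250 bases before the annotated start of 3 of them are printed, 5′ to 3′ on the gene's strand: Ppargc1a (chr5:51567726-51567975, minus strand) and Irf4 (chr13:30748983-30749232, plus strand), because both rose in the differentiated cells, and Prdm16 (chr4:154636874-154637123, minus strand), because it stayed low in most of them. Capitals mark a match to one of 5 short motifs searched on both strands.
Ppargc1a: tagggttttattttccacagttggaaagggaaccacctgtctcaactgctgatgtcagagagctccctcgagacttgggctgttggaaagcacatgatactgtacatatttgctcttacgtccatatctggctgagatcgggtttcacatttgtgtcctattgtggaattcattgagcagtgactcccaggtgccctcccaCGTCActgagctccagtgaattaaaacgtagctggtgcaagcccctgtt
Irf4: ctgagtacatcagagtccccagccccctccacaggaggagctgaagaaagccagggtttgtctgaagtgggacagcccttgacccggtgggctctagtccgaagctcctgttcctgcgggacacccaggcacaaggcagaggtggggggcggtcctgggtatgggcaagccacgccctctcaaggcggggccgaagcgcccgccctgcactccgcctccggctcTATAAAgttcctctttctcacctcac
Prdm16: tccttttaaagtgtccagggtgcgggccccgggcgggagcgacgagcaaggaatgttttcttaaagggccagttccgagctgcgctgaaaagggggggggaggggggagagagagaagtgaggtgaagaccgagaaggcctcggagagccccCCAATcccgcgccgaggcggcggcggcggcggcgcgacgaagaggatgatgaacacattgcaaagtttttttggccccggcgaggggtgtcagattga
The cAMP response element core TGACG was matched on the reverse strand of the Ppargc1a promoter, from 49 to 45 bases before the start, and occurred in 17.8% of all 32851 promoter windows of the same length. Promoter entries were matched by symbol only. On mm9 the Ppargc1a transcript read here ends at 51945160, but the GENCODE gene reaches 51958964, further upstream on the minus strand. The Ppargc1a window may therefore belong to another start of the gene, which was not checked. The TATA box letters TATAAA were matched in the Irf4 promoter, from 26 to 21 bases before the start, and occurred in 12.4% of windows. The letters CCAAT were matched in the Prdm16 promoter, from 98 to 94 bases before the start, and occurred in 33.8% of windows. The EBF core written as CCCNNGGG was matched in the Ebf3 window, which also held the TGACG core at 2 places, and occurred in 11.8% of windows. The nuclear receptor motif AGGTCA occurred in 14.02% of windows and in no window of these 5 genes. The motifs do not share letters with one another in the printed windows. The GC content was 48.0% for Ppargc1a, 63.6% for Irf4 and 62.4% for Prdm16.

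The first comparison asks how the regulators changed when preadipocytes became adipocytes. Ppargc1b, Ppargc1a, Irf4 and Ebf1 rose and Foxc2 fell between the D0 pair and the 9 differentiated samples, while Prdm16, Ebf2 and Ebf3 did not pass the test. In limma on log2(FPKM + 0.1), with Benjamini-Hochberg adjustment over 17075 genes, 4 of the 8 genes rose and 1 fell at an adjusted p under 0.05. Among all genes tested, 16.5% rose and 17.7% fell, so a change in one direction or the other was common. The median log2 difference was 1.10 over the 8 genes and 0.010 over all genes. The 9 differentiated samples span 8 conditions, and their spread includes the differences between those conditions. Within the untransduced time course alone, 4 samples against the D0 pair, the same 5 genes passed in limma, with log2 differences of 5.67 for Ppargc1b, 3.90 for Ppargc1a, 3.70 for Irf4, 1.20 for Ebf1 and -2.22 for Foxc2. In these bulk samples, fewer cells of a type and less RNA per cell cannot be told apart.

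**Figure D1:**
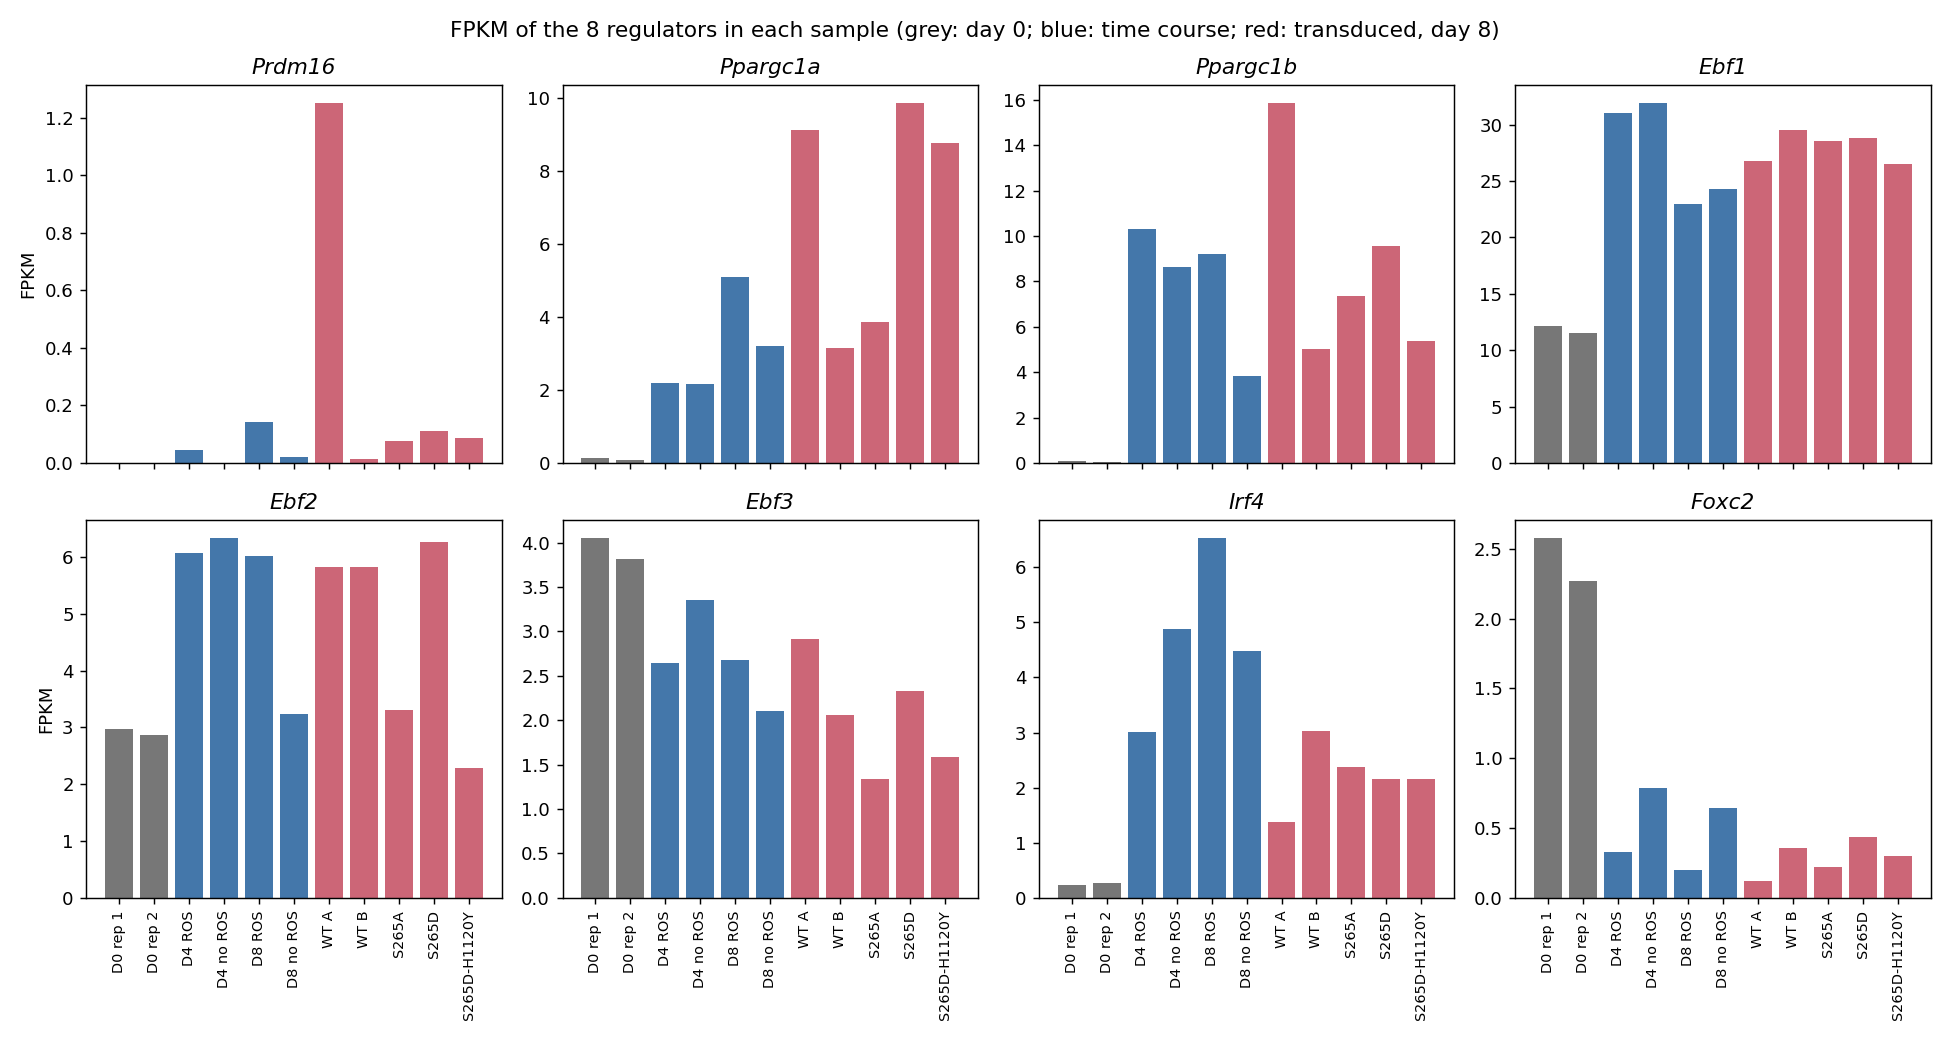
FPKM of each of the 8 regulators (vertical axis, own scale in each panel, from 0) in the 11 samples (horizontal axis), 1 bar a sample, with the D0 pair in grey, the differentiated time course in blue and the transduced day 8 samples in red. Prdm16 reached 1.25 FPKM in WT A and at most 0.143 elsewhere, and Foxc2 was highest in the D0 pair.

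Ppargc1a was read from 1 transcript on chr5:51845488-51945160 of mm9, minus strand, a coding gene with 6464 bases of exon. Its FPKM was 0.132 and 0.0828 at D0, 2.18 at D4 ROS, 2.16 at D4 no ROS, 5.09 at D8 ROS, 3.19 at D8 no ROS, 9.11 and 3.14 in the transduced samples WT A and WT B, 3.86 in S265A, 9.86 in S265D and 8.75 in S265D-H1120Y. All 9 differentiated samples lay above both D0 samples, and WT A, S265D and S265D-H1120Y formed the upper end. Among all genes, 20.3% lay above both D0 samples without overlap. The log2 difference was 4.48 ± 0.56 (SE), with a 95% interval of 3.26 to 5.70 and an adjusted p of 0.000118 in limma. Its size depends on the constant added before the logarithm, because the D0 values are near 0.1. With 1 added it was 2.34. A second symbol at the same position, PGC-1v, is the same locus with nearly the same exons and ran from 0.0824 to 9.85 FPKM. It is no separate measurement.

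Ppargc1b, on chromosome 18, had the largest difference of the 8 genes. Its FPKM was 0.0643 and 0.0351 at D0, 10.3 at D4 ROS, 8.65 at D4 no ROS, 9.21 at D8 ROS, 3.83 at D8 no ROS, 15.9 and 5.01 in the transduced samples WT A and WT B, 7.37 in S265A, 9.54 in S265D and 5.36 in S265D-H1120Y. It was already near its later level at day 4, and D8 no ROS was the lowest differentiated sample. The log2 difference was 5.71 ± 0.42 (SE), with an adjusted p of 2.17e-06 in limma. The 0.1 added before the logarithm exceeds both D0 values, so this difference is on the log2(FPKM + 0.1) scale only. With 1 added it was 3.06.

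The balance within the PGC-1 pair differed along the series. The FPKM of Ppargc1a divided by that of Ppargc1b was 0.211 at D4 ROS and 0.250 at D4 no ROS. It was 0.552 at D8 ROS, 0.833 at D8 no ROS, 0.574 and 0.626 in the WT pair and 0.525 in S265A, then 1.03 in S265D and 1.63 in S265D-H1120Y. Ppargc1a was thus below Ppargc1b in 7 of the 9 differentiated samples and above it in the other two. The 2 WT samples, although 2.90-fold apart in Ppargc1a and 3.17-fold apart in Ppargc1b, had nearly the same ratio. At D0 the ratio was 2.05 and 2.36, from levels near or under 0.1 FPKM. Their relative Pprc1 fell from 22.1 and 22.5 FPKM at D0 to 9.07 to 13.8 FPKM, a log2 difference of -1.07 ± 0.18 (SE; adjusted p = 0.000974 in limma).

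**Figure D2:**
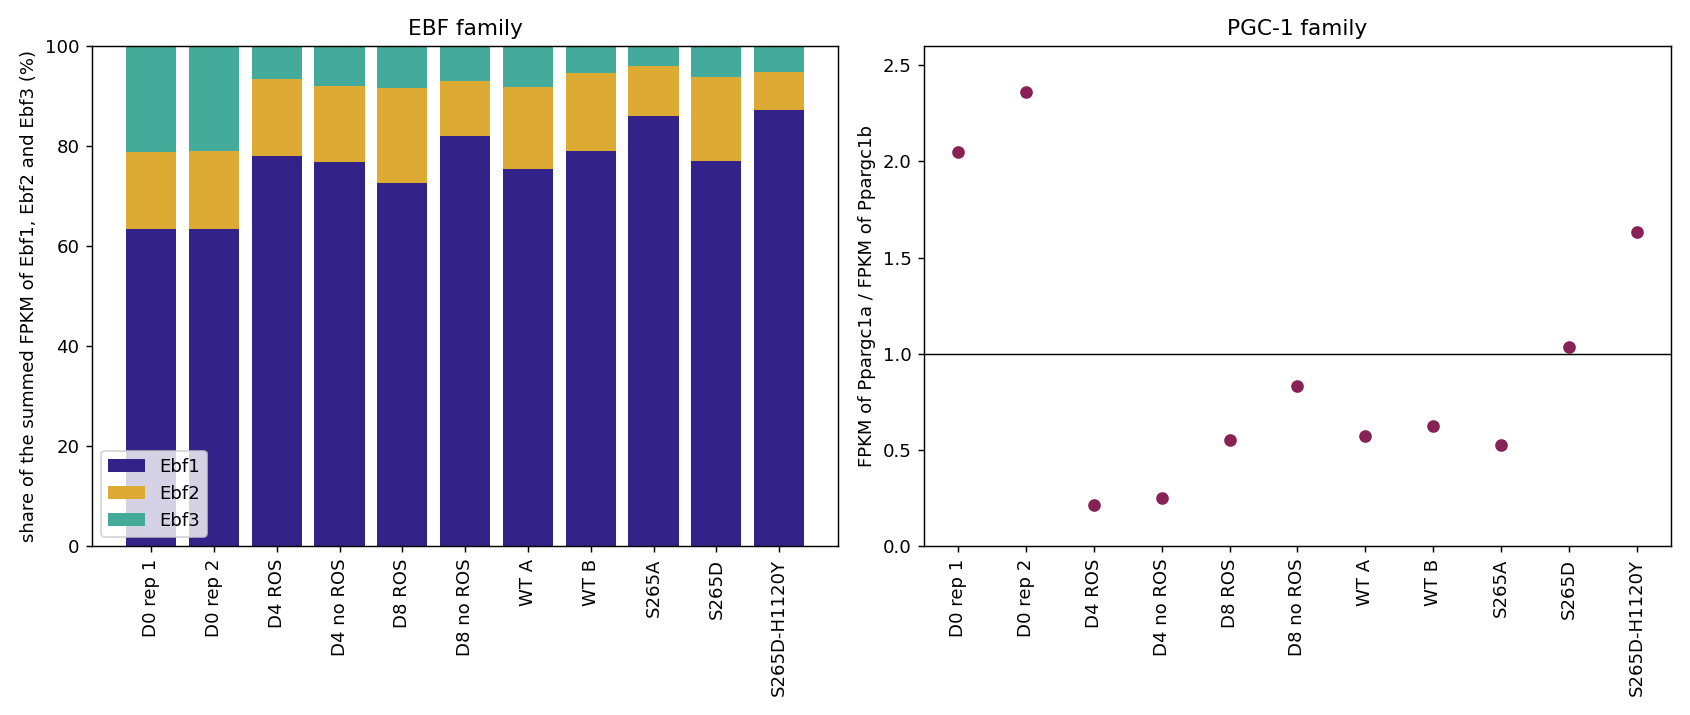
Left, the share of the summed FPKM of Ebf1, Ebf2 and Ebf3 (vertical axis, percent) that each gene holds in each of the 11 samples. Right, the FPKM of Ppargc1a divided by that of Ppargc1b (vertical axis) in the same samples, with a line at 1. The Ebf3 share was near 21% in both D0 samples and at most 8.43% in the others, and the PGC-1 ratio was lowest at day 4.

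Prdm16, on chr4:153690234-154010982 of mm9, minus strand, was the lowest of the 8 genes. Its FPKM was listed at 0 in both D0 samples and at D4 no ROS, and was 0.0464 at D4 ROS, 0.143 at D8 ROS, 0.0189 at D8 no ROS, 1.25 and 0.0128 in the transduced samples WT A and WT B, 0.0777 in S265A, 0.110 in S265D and 0.0869 in S265D-H1120Y. Only WT A exceeded 1 FPKM, and 3 of 11 samples reached 0.1 FPKM. The reads behind these values covered 39122 mapped bases in WT A, 6143 at D8 ROS, 694 at D8 no ROS and 396 in WT B, over 8433 bases of exon. The log2 difference between differentiated and D0 cells was 0.98 ± 0.73 (SE), with a 95% interval of -0.61 to 2.57 and an adjusted p of 0.323 in limma. The 2 other rows of the locus, mel1 at the 3′ end and 5930403L14Rik at the 5′ end, had 1.19 and 1.20 FPKM in WT A and at most 0.122 and 0.110 FPKM in any other sample.

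Ebf1 was the most abundant of the 8 genes. It lies on chr11:44431636-44818674 of mm9, plus strand. Its FPKM was 12.2 and 11.5 at D0, 31.0 at D4 ROS, 31.9 at D4 no ROS, 23.0 at D8 ROS, 24.3 at D8 no ROS, 26.8 and 29.6 in the transduced samples WT A and WT B, 28.6 in S265A, 28.8 in S265D and 26.5 in S265D-H1120Y. The differentiated samples did not overlap with D0 and kept within 1.39-fold of each other, the narrowest range of the 8 genes. The log2 difference was 1.22 ± 0.17 (SE), with an adjusted p of 0.000272 in limma. A shorter Ebf1 transcript ending in the first part of the gene ran from 1.34 to 4.34 FPKM.

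Ebf2, on chr14:67852129-68048604 of mm9, plus strand, fell into a higher and a lower set of samples. Its FPKM was 2.97 and 2.87 at D0, 6.06 at D4 ROS, 6.33 at D4 no ROS, 6.01 at D8 ROS, 3.24 at D8 no ROS, 5.82 and 5.82 in the transduced samples WT A and WT B, 3.31 in S265A, 6.26 in S265D and 2.28 in S265D-H1120Y. The 6 higher samples lay between 5.82 and 6.33 FPKM, about 2-fold over D0. D8 no ROS and S265A were close to the D0 level, and S265D-H1120Y lay below both D0 samples. The log2 difference over all 9 samples was 0.68 ± 0.37 (SE), with a 95% interval of -0.12 to 1.49 and an adjusted p of 0.175 in limma.

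Ebf3, on chr7:144385354-144506128 of mm9, minus strand, had an FPKM of 4.05 and 3.82 at D0, 2.64 at D4 ROS, 3.35 at D4 no ROS, 2.67 at D8 ROS, 2.10 at D8 no ROS, 2.91 and 2.06 in the transduced samples WT A and WT B, 1.33 in S265A, 2.33 in S265D and 1.59 in S265D-H1120Y. All 9 differentiated samples lay below both D0 samples, as did 23.1% of all genes. The log2 difference was -0.78 ± 0.29 (SE), and the adjusted p of 0.0575 in limma missed the threshold. It was 0.0431 with 1 added before the logarithm and 0.0496 without WT A, a fit added after seeing the data. The other alternatives did not pass in limma. The adjusted p was 0.0613 with no filter and 0.0574 with the highest-mean transcript. It was 0.0654 after scaling to a common median of ratios and 0.0791 in the untransduced samples alone. Ebf3 made up 21.1% and 21.0% of the summed FPKM of Ebf1, Ebf2 and Ebf3 at D0 and from 4.02% to 8.43% in differentiated cells. The Ebf1 share ran from 63.3% and 63.4% at D0 up to 87.2% in S265D-H1120Y, where the Ebf2 share was 7.51%. The fourth family member, Ebf4, was at most 0.182 FPKM. A row labelled Ebf3 on chromosome 2 lies at the position of the Ebf4 row and a row labelled Ebf4 on chromosome 11 at that of Ebf1, and neither entered the values given here. The chromosome 2 row is part of the sum over all transcripts, which was tried as an alternative.

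Irf4, on chr13:30841127-30858796 of mm9, plus strand, had an FPKM of 0.240 and 0.278 at D0, 3.02 at D4 ROS, 4.88 at D4 no ROS, 6.53 at D8 ROS, 4.49 at D8 no ROS, 1.37 and 3.03 in the transduced samples WT A and WT B, 2.38 in S265A, 2.16 in S265D and 2.16 in S265D-H1120Y. All 9 differentiated samples lay above both D0 samples, D8 ROS was highest, and WT A was lowest. The log2 difference was 3.12 ± 0.45 (SE), with an adjusted p of 0.000329 in limma. With 1 added before the logarithm it was 1.70. Each of the 5 transduced samples was at least 2-fold below the untransduced D8 ROS sample, from 2.16-fold in WT B to 4.76-fold in WT A. Transduction and the separate culture cannot be told apart in this comparison.

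Foxc2, a gene of 2724 exon bases on chr8:123640071-123642794 of mm9, plus strand, ran opposite to the PGC-1 genes. Its FPKM was 2.58 and 2.27 at D0, 0.331 at D4 ROS, 0.784 at D4 no ROS, 0.200 at D8 ROS, 0.644 at D8 no ROS, 0.118 and 0.356 in the transduced samples WT A and WT B, 0.220 in S265A, 0.433 in S265D and 0.301 in S265D-H1120Y. All 9 differentiated samples lay below both D0 samples, with D4 no ROS and D8 no ROS the highest among them and WT A the lowest. It fell by 2.53 ± 0.43 (SE) on the log2 scale, with an adjusted p of 0.000912 in limma. The log2 difference of Foxc2 was -1.33 with 1 added before the logarithm. Its relative Foxc1 had 11.1 and 11.5 FPKM at D0 and 4.16 to 11.7 FPKM in differentiated cells (log2 difference -0.72 ± 0.33, SE; adjusted p = 0.110 in limma). The levels of Foxc1 were 4.29 and 5.07 times those of Foxc2 at D0 and from 8.52 to 35.3 times in differentiated cells.

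**Figure D3:**
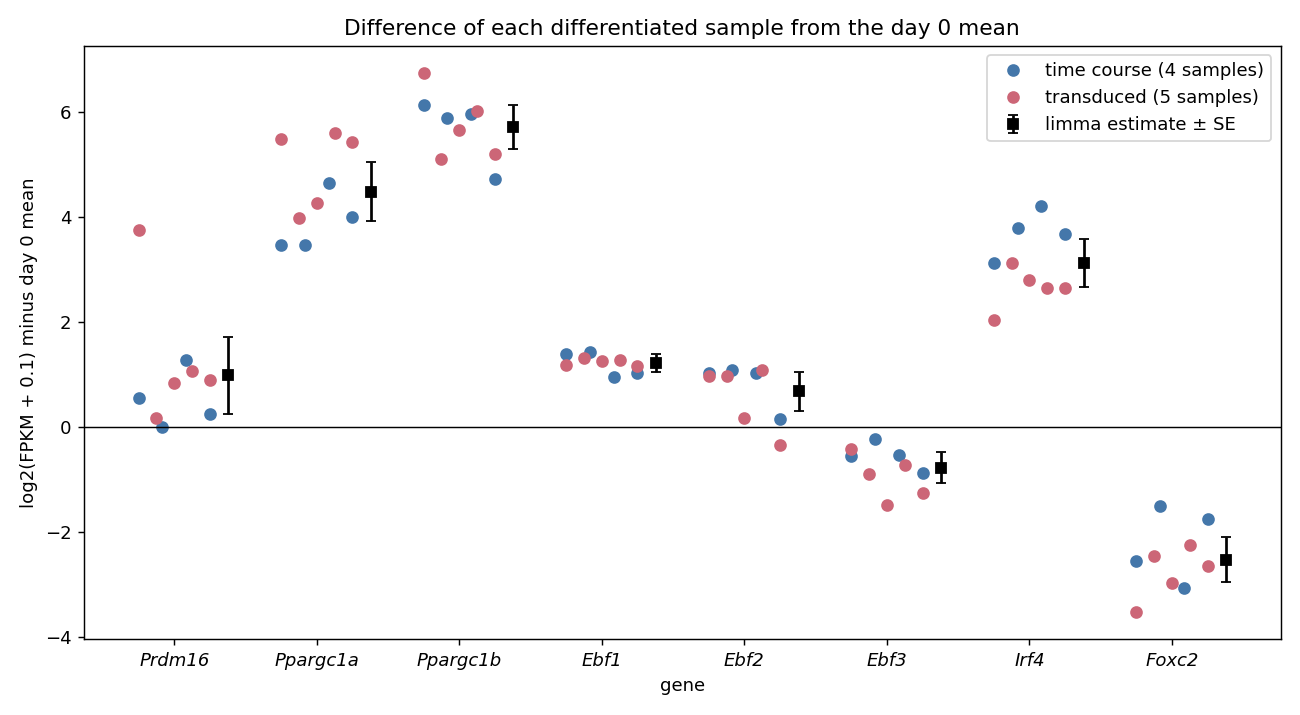
Each differentiated sample's log2(FPKM + 0.1) minus the mean of the D0 pair (vertical axis) for the 8 genes, with the 4 time course samples in blue, the 5 transduced samples in red, and the limma estimate with its SE as a black square. The points of Ppargc1a, Ppargc1b, Ebf1 and Irf4 all lie above 0 and those of Ebf3 and Foxc2 below it, while Ebf2 has 1 sample below 0 and Prdm16 has 1 at 0.

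The second comparison concerns ROS, the agent that separates the cultures the study calls beige and white. With 1 sample a condition, ratios are given and a gene is counted when 2-fold apart at 0.1 FPKM or more in one of the samples. At day 4, of 7 genes that could be counted only Foxc2 passed, at 2.37-fold lower with ROS, where 6.7% of all genes passed in either direction. Ppargc1a was nearly equal at day 4, with 2.18 and 2.16 FPKM. At day 8, 3 of 8 genes passed, where 19.2% of all genes did. Ppargc1b was 2.40-fold higher with ROS, Prdm16 was 7.57-fold higher from low levels, and Foxc2 was 3.21-fold lower. Ebf2 was 1.86-fold higher, Ppargc1a 1.59-fold and Irf4 1.46-fold, whereas Ebf1 had a ratio of 0.949. The median log2 difference of all genes at day 8 was -0.21, and 0.59 for the 8 genes. Without ROS the summed preadipocyte markers were 992 FPKM against 259 with it at day 8, and 6 of the 8 were at least 2-fold lower with ROS. The adipocyte markers were mixed. Their sum was 10086 FPKM without ROS and 36194 with it, mostly from Fabp4 (7631 and 31402 FPKM). Their median log2 difference was 0.49. Cidec (436 and 2087 FPKM), Adipoq (709 and 1291 FPKM), Plin1 (143.5 and 231 FPKM) and Lpl (658 and 807 FPKM) were also higher with ROS. Retn (278 and 238 FPKM), Pparg (231 and 140 FPKM) and Lep (0.252 and 0 FPKM) were higher without ROS. The part of these cell states in the ratios was not tested. After scaling to a common median of ratios the log2 difference of Ebf2 at day 8 was 1.11, past 2-fold, and that of Ebf1 turned from -0.076 to 0.17.

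The day 8 difference in Ppargc1b and Ebf2 lay mainly in the untreated culture. Between day 4 and day 8 without ROS, Ppargc1b went from 8.65 to 3.83 FPKM, 2.26-fold lower, and Ebf2 from 6.33 to 3.24 FPKM, 1.96-fold lower. With ROS, Ppargc1b went from 10.3 to 9.21 FPKM and Ebf2 from 6.06 to 6.01 FPKM. Ppargc1a and Irf4 differed from them. With ROS, Ppargc1a was 2.33-fold and Irf4 2.17-fold higher at day 8 than at day 4, and without ROS Ppargc1a was 1.48-fold higher and Irf4 had a ratio of 0.920. Prdm16 was 3.09-fold higher at day 8 than at day 4 with ROS, but from low levels (0.143 and 0.0464 FPKM). With 0.1 added before the logarithm its log2 difference was 0.73, short of 2-fold. In all, 3 of 8 genes were 2-fold apart between the days with ROS, against 14.6% of all genes, and 1 of 7 without ROS, against 13.9% of all genes. In limma over the 6 time course samples, with 1 residual degree of freedom from the D0 pair, 0 of 16400 genes differed between ROS and no ROS at day 8, and 5011 had an unadjusted p under 0.05, against 1297 of 17075 with all 11 samples in 1 fit. The lowest adjusted p among the 8 genes was 0.0972, for Prdm16, followed by 0.0994 for Ebf2 and 0.107 for Foxc2. With all 11 samples in 1 limma fit, which adds the WT pair to the spread, the adjusted p was 0.944 for Prdm16, 0.591 for Ebf2 and 0.734 for Foxc2.

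**Figure D4:**
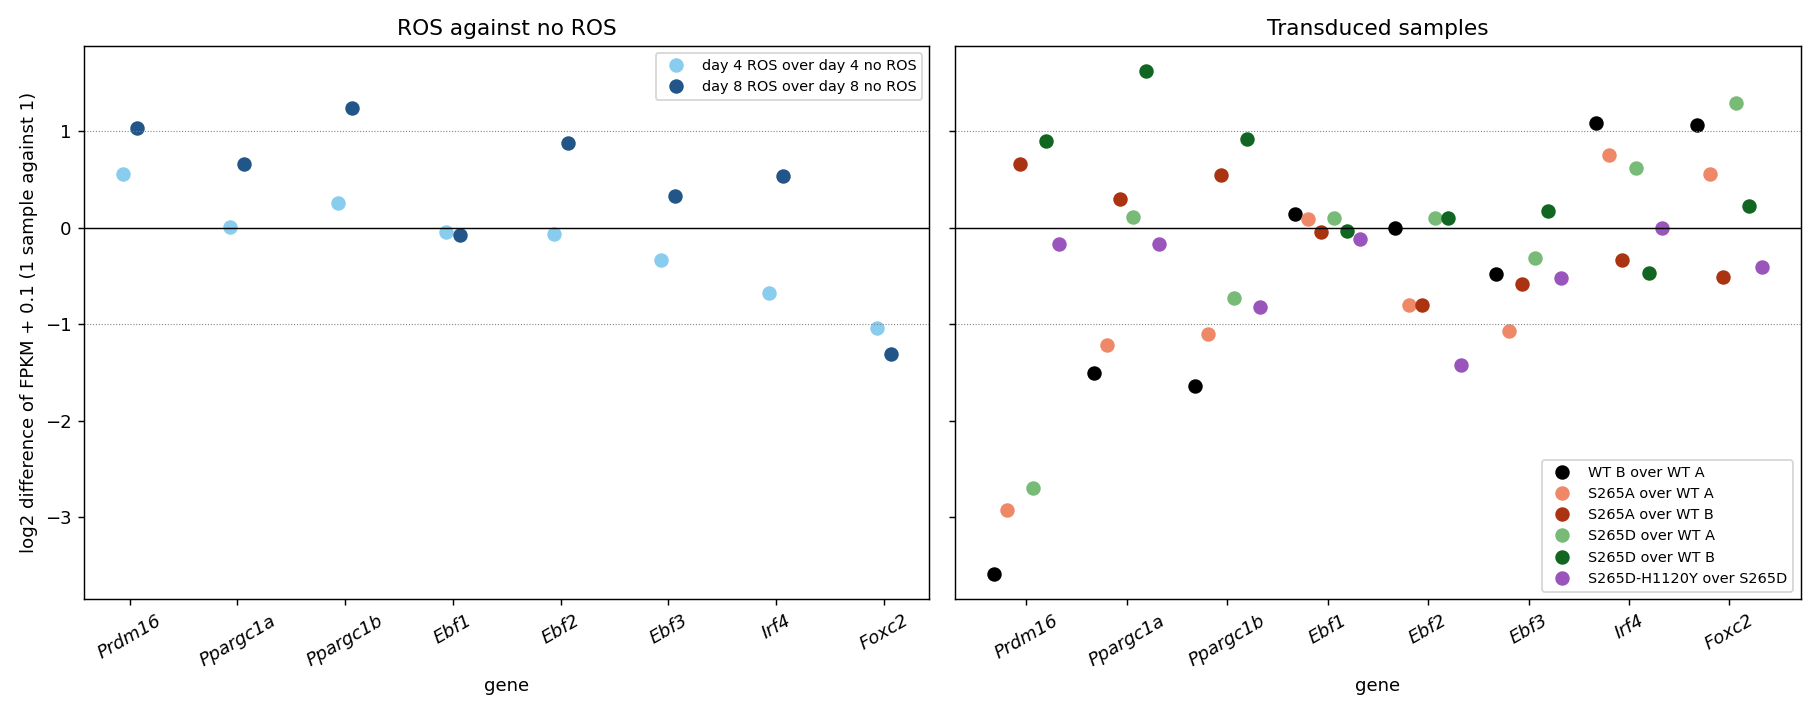
Log2 differences of FPKM + 0.1 (vertical axis) between single samples for the 8 genes, ROS against no ROS at days 4 and 8 on the left and the transduced samples on the right. Dotted lines mark 2-fold, and black points, WT B against WT A, show the spread of the WT pair. Ebf2 has a black point near 0 and both S265A points at -0.80, while for Prdm16, Ppargc1a and Ppargc1b the black points lie lowest.

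The third comparison asks how the genes differed between the hJMJD1A versions. The WT pair sets the spread, and 5 of 8 genes were 2-fold apart between WT A and WT B, where 27.2% of all genes were. Prdm16, Ppargc1a and Ppargc1b were 97.9-fold, 2.90-fold and 3.17-fold lower in WT B, and Irf4 and Foxc2 were 2.21-fold and 3.02-fold higher in WT B. Ebf1, Ebf2 and Ebf3 were at most 1.41-fold apart, and Ebf2 was equal to 3 digits. The adipocyte markers did not move together between WT A and WT B. Fabp4 was higher in WT B (12393 and 26902 FPKM), as was Lpl, whereas Adipoq (978 and 738 FPKM), Plin1 (293 and 158 FPKM), Cidec and Retn were higher in WT A, and the median log2 difference of the 8 was -0.47. The summed preadipocyte markers were 414 FPKM in WT A and 886 in WT B, the myeloid markers 5.03 and 16.6, and the muscle markers, from Acta1 and Des, 8.996 and 31.6. Their part in the spread of the pair was not tested.

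The labels do not say which WT sample was cultured alongside which mutant, so each mutant is set against both. S265A lay between WT A and WT B in 6 of the 8 genes. Against WT A, 4 of 8 genes were 2-fold apart, where 19% of all genes were, and all 4 were lower in S265A: Prdm16 16.1-fold, Ppargc1a 2.36-fold, Ebf3 2.18-fold and Ppargc1b 2.15-fold. Against WT B, 0 of 7 genes were 2-fold apart, where 13% of all genes were, and Ppargc1a and Ppargc1b were 1.23-fold and 1.47-fold higher in S265A. The direction for Prdm16, Ppargc1a and Ppargc1b thus turned with the WT sample. Ebf2 and Ebf3 were lower in S265A than in both WT samples. Ebf2 had 3.31 FPKM against 5.82 ± 0.00155 (SD, n = 2), a 1.76-fold difference, and Ebf3 had 1.33 FPKM against 2.48 ± 0.60 (SD, n = 2). The agreement of the WT pair in Ebf2 was far closer than that of the D0 pair (2.92 ± 0.077, SD, n = 2), so it is a poor measure of spread.

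S265D had the highest Ppargc1a of all 11 samples. Its 9.86 FPKM was 3.14-fold over WT B but 1.08-fold over WT A. Against WT A, 2 of 8 genes were 2-fold apart, Prdm16 11.4-fold lower and Foxc2 3.68-fold higher, where 20.8% of all genes were. Against WT B, 2 of 8 were, Prdm16 8.56-fold and Ppargc1a 3.14-fold higher, where 9.65% of all genes were. The Prdm16 ratio is of 0.110 to 0.0128 FPKM, and the WT B value rests on 396 mapped bases. With 0.1 added before the logarithm its log2 difference was 0.89, short of 2-fold. Ebf1 and Ebf2 were within 1.08-fold of both WT samples. Set against S265A, S265D had 2.55-fold higher Ppargc1a and 1.89-fold higher Ebf2, 1.74-fold higher Ebf3 while its Ebf1 ratio was 1.01. Of the 8 genes 1 passed 2-fold in that comparison, against 11.2% of all genes.

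S265D-H1120Y differed from S265D mostly in Ebf2. Ebf2 was 2.75-fold lower, at 2.28 against 6.26 FPKM, and was the single gene of the 8 to pass 2-fold, where 14.3% of all genes did. Ppargc1b was 1.78-fold lower, while Ppargc1a, at 8.75 against 9.86 FPKM, was 1.13-fold lower and Irf4 was equal to 3 digits. The adipocyte markers had a median log2 difference of -0.54 in that comparison, and Fabp4 stood at 14128 FPKM in S265D-H1120Y and 22872 in S265D. Their part was not tested. Ordered by level in the transduced samples, Ebf2 ran from S265D-H1120Y through S265A to WT A, WT B and S265D, of which the last 3 were within 1.08-fold. Ppargc1a ran from WT B through S265A to S265D-H1120Y, WT A and S265D, and its extremes were 3.14-fold apart, against 2.90-fold within the WT pair. In limma over the 5 transduced samples, with 1 residual degree of freedom, 0 of 16402 genes differed between S265A and WT, between S265D and WT or between S265D-H1120Y and S265D. Unadjusted p values under 0.05 were found for 107, 99 and 187 genes, and for 587, 479 and 941 with all 11 samples in 1 fit and 469, 388 and 629 with no filter on low values. In the limma fit of the 5 samples the adjusted p of each of the 8 genes was 1 in all 3 comparisons. The lowest unadjusted p was that of Ebf2 between S265D-H1120Y and S265D, 0.0517, with a log2 difference of -1.42 ± 0.44 (SE).

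The proteins that PRDM16, PGC-1 and EBF2 work with were followed in a list of 18 partners and repressors. Between D0 and differentiated cells 4 of the 18 rose and 6 fell in limma, where 16.5% and 17.7% of all genes did, with a median log2 difference of 0.015 against 0.010 for all genes. The 4 that rose were Zfp423, a repressor of the thermogenic program that binds EBF2, Nrip1, a corepressor that restrains Ucp1, Rb1, the retinoblastoma protein, and Dpf3, a chromatin remodelling subunit. Zfp423 went from 0.598 and 0.819 FPKM to 2.73 to 5.32 FPKM (log2 difference 2.25 ± 0.24, SE; adjusted p = 3.17e-05 in limma), and Nrip1 from 2.51 and 3.34 FPKM to 11.8 to 26.0 FPKM. The 6 that fell were Kdm1a, Ctbp2, Mybbp1a, Kat2a, Twist1 and Rcor1. Kdm1a, the demethylase LSD1, went from 40.0 and 40.3 FPKM to 13.7 to 22.5 FPKM, and Mybbp1a, a repressor of PGC-1α, from 65.0 and 71.9 FPKM to 26.6 to 45.6 FPKM. The other 8, among them Ehmt1, Ctbp1, Tle3 and Ncor1, did not pass. Between ROS and no ROS at day 8, 2 of the 18 were 2-fold apart, Tle3 (37.6 and 17.6 FPKM) and Dpf3 (0.817 and 0.216 FPKM), both higher with ROS, where 19.2% of all genes were 2-fold apart in either direction.

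Of the 9 listed PGC-1 partner factors and mitochondrial factors found in the files, 8 were tested, and 2 rose, Esrra and Tfb1m, where 16.5% of all genes rose. Esrra encodes the nuclear receptor ERRα, through which PGC-1 acts on mitochondrial genes. It went from 7.27 and 7.40 FPKM at D0 to between 21.0 and 60.6 FPKM, was highest in WT A, and had a log2 difference of 2.09 ± 0.35 (SE; adjusted p = 0.000793 in limma). Nrf1, Gabpa and Yy1 had log2 differences of -0.032, 0.12 and 0.19, and Tfam had 0.62 (adjusted p = 0.0785 in limma).

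Of 13 tested thermogenic target genes, 8 rose and none fell in limma between D0 and differentiated cells, where 16.5% of all genes rose and 17.7% fell, with a median log2 difference of 2.90. They included Cox8b, Elovl3, Plin5 and Ppara, whereas Ucp1 (adjusted p = 0.222) and Cidea (adjusted p = 0.0533) did not pass in limma. Ucp1 stood at 9.90 FPKM at D8 ROS, 12.1 in WT A, 4.67 in S265D and under 1 in all other samples. Ppargc1a in S265D-H1120Y was 8.75 FPKM with Ucp1 at 0.0528 FPKM, while WT A had 9.11 FPKM of Ppargc1a with Ucp1 at 12.1 FPKM. Ucp1 is only 1 of the 13 targets. S265D-H1120Y was at least 2-fold lower than S265D in 7 of them and higher in 1 (14.3% of all genes were 2-fold apart in either direction). S265A was at least 2-fold lower than WT A in 11 of the 13 targets (19% of all genes were 2-fold apart in either direction) and at least 2-fold higher than WT B in 1 (13% of all genes). S265D was at least 2-fold higher than WT B in 11 (9.65% of all genes), but against WT A it was lower in 6 and higher in 1 (20.8% of all genes). Relative to no ROS, all 13 were at least 2-fold higher with ROS at day 8, where 19.2% of all genes were 2-fold apart in either direction. The study names Ucp1, Cidea, Ppara, Cpt1b, Otop1 and Elovl3 among genes that it picked by FPKM ratios from these same data. The target counts for ROS and for the hJMJD1A versions are therefore no independent support.

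The genes most like each member were found by Pearson's r of log2(FPKM + 0.1) over the 11 samples, among 12415 or 12416 symbols with a mean of at least 1 FPKM. The D0 pair differs from the other samples in many genes, and all points share the same libraries, so r is a description. For Ppargc1a the best match was PGC-1v (r = 1.00), which is its own locus, followed by Gpr120 (r = 0.99), a fatty acid receptor, and Kbtbd11 (r = 0.99). For Ppargc1b they were Pdha1, Idh3a and Pex16 (r = 0.99 each), of which Pdha1 and Idh3a encode mitochondrial enzymes of pyruvate and citrate metabolism. For Prdm16 they were TXNRD2 and Txnrd2, 2 symbols of the mitochondrial thioredoxin reductase, and Otop1, with r of 0.94, and WT A was the highest sample of each. For Ebf1 they were Trpc1, B3galt1 and Abca1 (r = 0.99 each), for Ebf2 Hoxb8 (r = 0.94), Zkscan3 (0.89) and Fn3krp (0.89), and for Ebf3 Fzd7 (0.96), Amotl2 (0.94) and Nfyb (0.92). For Irf4 they were 5730494N06Rik (0.99), Tsc22d3 (0.98), a glucocorticoid-induced gene, and Amy1 (0.98). For Foxc2 they were Itprip, Mtap1a and HDAC7 (r = 0.98 each). Among the members, over the 9 differentiated samples alone, Ebf2 and Ebf3 had r = 0.79 and Prdm16 and Foxc2 had r = -0.78, while Ppargc1a and Ppargc1b had r = 0.27.

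The strand opposite to each gene was read at a low level. The antisense FPKM was at most 0.0588 for Prdm16, Ppargc1a, Ebf2, Ebf3 and Foxc2. It reached 0.266 for Irf4 in S265D, where the sense row had 2.16 FPKM, 0.244 for Ebf1 in WT A and 0.0661 for Ppargc1b at D8 no ROS. Apart from the short Ebf1 form and the rows placed on other chromosomes, the further sense transcripts of a gene stayed close to the representative one. The highest FPKM was 1.23 to 1.27 over the Prdm16 transcripts, 6.33 to 7.23 over those of Ebf2 and 6.48 to 6.53 over those of Irf4. By mean FPKM over the 11 samples, Ebf1 stood above 89.2% of all symbols, Ppargc1b above 73.7%, Ebf2 above 69.5%, Ppargc1a above 68.9% and Prdm16 above 50.5%.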

How the data were processed

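RNA-seq libraries of 11 im-scWAT samples were used, grouped by GEO's labels. Alignment by the authors used BWA on UCSC gene models and the mm9 genome. The deposited FPKM is strand-specific, and the deposited mapped bases are a coverage signal per transcript, not read counts, so no count test was used. Each symbol was read from its sense row flagged as representative by the authors. Coordinates of the files overlapped the GENCODE M1 gene on the same build for all 8 genes. FPKM was tested as log2(FPKM + 0.1) with limma (3.58.1, R 4.3.3) and Benjamini-Hochberg adjustment at 0.05, after a filter of 0.1 FPKM in at least 1 sample, and the script was tested on simulated data. Single samples were compared by ratios. The 8 genes and the gene lists were chosen with earlier results of these data known. All members are named, with 3 genes most like each, and from each list up to 5 of the highest mean or those a count needs. Alternatives changed the added constant, filter, transcript, scaling, samples and fit. Leaving out WT A from the limma fit was added after seeing the data. Precision depends on depth, given as total mapped bases.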

Additional observations from a re-analysis of the deposited data

Results flagged for a closer look

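Prdm16 in WT A, at 1.25 FPKM, was far from the other 8 differentiated samples, which reached at most 0.143 FPKM. Its gap to the next sample exceeded Dixon's 95% critical value of 0.493 of the range, and it was the only one of the 8 genes to do so. That critical value assumes draws from 1 normal distribution. These are FPKM values of 8 conditions, mostly near 0, and both ends of all 8 genes were checked, so no chance rate applies. The difference between ROS and no ROS turned direction from day 4 to day 8 in 3 genes, which was not tested because each condition had 1 sample. The log2 difference of Ebf2 was -0.062 at day 4 and 0.87 at day 8, that of Ebf3 was -0.33 and 0.33, and that of Irf4 was -0.68 and 0.53. In all 3 genes both differences exceeded that of the D0 pair. After scaling to a common median of ratios, Ebf2 was at 0.022 at day 4 and 1.11 at day 8, so its turn was lost.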

How the results depend on the processing

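Between D0 and differentiated cells 5845 genes passed, and 2387 to 5818 passed when 1 sample was left out. The lower counts, 2387 and 2473, came without a D0 sample, which leaves 1 at D0 that is assumed to vary like the others, and the highest came without WT A. Other alternatives kept the number within 1.5 times. The number of the 8 genes that passed was 5 or 6 under every alternative run. Prdm16, lower in S265A and S265D than in the WT mean by over 2-fold, had a log2 difference from -2.93 (without WT B) to 0.66 (without WT A) for S265A and from -2.69 to 0.89 for S265D. The values without WT A were the 2 reversals of called differences among 288 values of the 8 genes under alternatives, and 59 others moved by over 1 SD of a replicate pair, most with the added constant of 1 or the scaling. With differences under 2-fold included, 16 of the 288 values changed sign. No paired analysis was run. The numbers of the D0 and single samples only follow accession order, the WT samples carry letters, and no compared groups share 2 numbers. The ROS plus and ROS minus labels of the D0 samples could match each to an arm of the time course. This was not done, because both were taken before ROS was added and are treated as replicates. With 1 sample a condition, ROS and hJMJD1A differences have no replicate check, and FPKM under 0.1 rests on few mapped bases.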
